A study of Mus musculus with 6 samples.

Results

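The genes described here are the ligands and receptors of the platelet-derived growth factor (PDGF) system in differentiated MC3T3-E1 osteoblasts treated with corticosterone. They were chosen by symbol and comprise the 4 ligand genes *Pdgfa*, *Pdgfb*, *Pdgfc* and *Pdgfd*, the 2 receptor genes *Pdgfra* and *Pdgfrb*, and the receptor-like gene *Pdgfrl*. All 7 were found by their Ensembl identifiers among the 24016 genes with values, and all 7 passed the filter on low values, which removed no gene. MC3T3-E1 is a preosteoblast line from mouse calvaria, used here as its subclone 4, so that every culture stems from 1 clone. Differentiation of these wild-type cells took 6 days and used 10 mM β-glycerophosphate together with 50 μg/ml ascorbic acid. Then the cells received vehicle (3 samples) or corticosterone, the principal rodent glucocorticoid, at 100 nM for 24 h (3 samples). Calcitriol at 10 nM is named in a protocol text that all 6 samples share and that describes the corticosterone treatment. Whether the vehicle cultures also received it is not stated, and if they did not, calcitriol and corticosterone cannot be told apart in any difference given here. The sample labels give passages 6 to 12 in one field and a different range in another.

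PDGFs are dimers that bind receptor tyrosine kinases on mesenchymal cells. PDGF-A and PDGF-B are processed inside the cell, whereas PDGF-C and PDGF-D are secreted with an inhibitory CUB domain that proteases remove outside it. The α receptor binds PDGF-A, PDGF-B and PDGF-C chains, and the β receptor binds PDGF-B and PDGF-D. In bone, osteoblast precursors carry both receptors and respond to PDGF with migration and proliferation, while endothelial cells and preosteoclasts are known sources of PDGF-B.

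Corticosterone-treated cultures held more *Pdgfra* and *Pdgfd* mRNA and less *Pdgfc* mRNA than vehicle-treated cultures. *Pdgfra* rose 1.69-fold and *Pdgfd* 1.68-fold, while *Pdgfc* fell to 0.527 of its vehicle level. *Pdgfa*, *Pdgfb*, *Pdgfrb* and *Pdgfrl* did not pass the test, and the mean of each was between 0.692 and 1.08 of its vehicle level. In limma fits of log2(normalized count + 0.1), with p-values adjusted (Benjamini-Hochberg) across the 24016 genes, 2 of the 7 genes were thus higher and 1 was lower at an adjusted p under 0.05. Over all genes, 16.7% passed that test, 8.49% as higher and 8.2% as lower, and the share was 31.5% among the 11480 genes with a mean normalized count of at least 50, to which 6 of the 7 belong. The study also asked for an absolute log2 fold change over 1. By limma that rule left 2.78% of all genes (1.38% higher, 1.4% lower). The number of genes left depended on the tool, with 668 by limma, 554 by edgeR and 514 by DESeq2. Of the 7 PDGF genes, 0 passed the rule by limma, edgeR or DESeq2. At an unadjusted p under 0.05, limma called 4 of the 7, the fourth being *Pdgfrb*.

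The normalized counts are read counts per gene divided by 1 size factor per library. Between 16020401 and 25638645 reads were counted on genes per library, and the 3 corticosterone libraries, at no more than 18992332, were each shallower than every vehicle library. The PDGF genes rested on between 27 and 8961 reads per library, well above the floor of 3 reads used here, which equals 2.32 to 3.84 on the normalized scale. The labels do not say whether the replicates are separate cultures, so the p-values measure the spread between these libraries, which could be technical, although the study describes them as biological replicates. In bulk RNA, fewer cells of a type and less RNA per cell cannot be told apart. The genes *Tsc22d3*, *Sgk1*, *Fkbp5* and *Per1*, known to respond to glucocorticoids, all rose past a log2 fold change of 1 (4 of 4). The study had already named these same genes as upregulated in these data, so their rise is not an independent check of the treatment.

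Promoter windows from RefSeq (build GRCm38.p6), each with 250 bases before and 50 after a start site, were found for 4 of the 7 genes, namely *Pdgfa*, *Pdgfc*, *Pdgfd* and *Pdgfra*. The windows of the 3 genes that changed and that of the farther upstream of 2 *Pdgfa* start sites are shown, because the latter belongs to a ligand that did not pass the test and differs in base composition. Capitals mark matches to any of 6 motifs searched on both strands, which were the full glucocorticoid receptor site in a loose form (GNACA and TGTNC with 3 bases of any kind between them), its single hexamer AGAACA, the AP-1 site TGANTCA, the TATA box TATAAA, the CCAAT box and the GC box GGGCGG.
Pdgfra, chr5:75152001-75152300, plus strand: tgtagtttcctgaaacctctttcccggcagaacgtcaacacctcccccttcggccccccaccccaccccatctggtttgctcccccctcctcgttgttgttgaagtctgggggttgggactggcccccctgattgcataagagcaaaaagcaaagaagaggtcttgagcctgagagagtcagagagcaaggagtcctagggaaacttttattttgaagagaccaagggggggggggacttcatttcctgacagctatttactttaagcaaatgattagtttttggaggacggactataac
Pdgfd, chr9:6168236-6168535, plus strand: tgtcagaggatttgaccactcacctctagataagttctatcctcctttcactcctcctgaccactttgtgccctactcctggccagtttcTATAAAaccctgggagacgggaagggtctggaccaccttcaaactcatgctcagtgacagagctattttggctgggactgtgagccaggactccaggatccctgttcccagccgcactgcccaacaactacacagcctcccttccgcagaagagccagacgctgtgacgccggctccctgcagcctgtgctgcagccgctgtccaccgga
Pdgfc, chr3:81036166-81036465, plus strand: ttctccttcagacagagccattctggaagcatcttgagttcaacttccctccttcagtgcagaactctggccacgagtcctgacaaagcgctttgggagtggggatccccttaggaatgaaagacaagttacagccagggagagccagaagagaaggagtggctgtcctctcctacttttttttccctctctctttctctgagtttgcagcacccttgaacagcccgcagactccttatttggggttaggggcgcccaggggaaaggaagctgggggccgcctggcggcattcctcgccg
Pdgfa, chr5:138994895-138995194, minus strand: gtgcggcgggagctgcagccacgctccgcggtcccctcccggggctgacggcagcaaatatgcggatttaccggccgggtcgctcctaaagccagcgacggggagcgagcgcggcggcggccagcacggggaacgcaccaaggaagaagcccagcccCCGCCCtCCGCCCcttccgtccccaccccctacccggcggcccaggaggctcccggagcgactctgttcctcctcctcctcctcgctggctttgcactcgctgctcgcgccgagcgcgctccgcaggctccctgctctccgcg

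No window of the *Pdgf* genes held the full glucocorticoid receptor site or its hexamer, which 0.475% and 19.0% of all 32851 promoter windows held. The *Pdgfra* and *Pdgfc* windows held none of the 6 motifs. The *Pdgfd* window had a TATA box (13.6% of all windows) that begins 160 bases before the start site. The *Pdgfa* window shown had GC boxes (35.7% of all windows) that begin 93 and 86 bases before its start site, and the window of its other start site had 1 that begins 60 bases before it. The AP-1 site (7.81% of all windows) and the CCAAT box (37.4%) were in none of these windows. Base composition set *Pdgfa* apart, with 73.3% and 67.0% G or C and 37 and 24 CG dinucleotides, against 55.0% and 8 for *Pdgfc*, 56.7% and 8 for *Pdgfd*, 51.0% and 5 for *Pdgfra*, and medians of 52.7% and 7 over all windows. A match is a string of letters only, and sites outside these windows were not searched.

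*Pdgfra* (ENSMUSG00000029231) encodes the α receptor, a marker of mesenchymal progenitors. It lies on the plus strand of chromosome 5, 75152292 to 75198215 of GRCm38, the build that the labels name as mm10, and its longest coding transcript has 23 exons. Its normalized count was 2848, 3053 and 3218 with vehicle against 5032, 5385 and 5016 with corticosterone. Every corticosterone library was above every vehicle library, and the lowest treated value was well clear of the highest untreated one. The group means were 3039 ± 185 and 5144.5 ± 209 (SD, n = 3 each). On the log2 scale the change was 0.76 (standard error, SE, 0.05, adjusted p = 9.9e-09 by limma), which as a fold gives a 95% interval of 1.57 to 1.82. It was the change of rank 189 by p among all genes. The exact permutation test of its 6 log2 values gave p = 0.1 (two-sided), the smallest that 3 against 3 allow, so that this test cannot reach the threshold for any gene here.

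*Pdgfrb* (ENSMUSG00000024620; chromosome 18, 61045150 to 61085061, plus strand) encodes the β receptor, which marks pericytes and other mural cells as well as osteoblast precursors. Its normalized count was 6905.5, 6916 and 6776 with vehicle and 6319, 6226 and 6499 with corticosterone. The treated libraries were all below the untreated ones, yet by a small margin, with a mean at 0.925 of the vehicle mean. The log2 fold change was -0.11 (SE 0.04, adjusted p = 0.052 by limma, 95% interval -0.19 to -0.03), just short of the threshold. Of 12 alternatives that kept all 6 libraries, 7 put it past the threshold, with an adjusted p of 0.030 by edgeR and 0.017 by DESeq2. The alternative without a filter is among the 12 and only repeats the main fit. In the 6 fits that left out 1 library, the limma adjusted p ranged from 0.054 to 0.16. The call therefore depends on the setting, whereas its direction was lower in all of them.

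The ratio of both receptors was compared within each library, where the size factor cancels. Per kilobase of exon, *Pdgfra* stood at 0.225, 0.241 and 0.26 of *Pdgfrb* with vehicle against 0.435, 0.473 and 0.422 with corticosterone. The treated libraries all had the higher ratio. On the log2 scale the ratio went from -2.05 ± 0.10 to -1.18 ± 0.08 (SD, n = 3 each), a difference of 0.87 (exact permutation test, two-sided p = 0.1, the smallest possible). *Pdgfrb* remained the more abundant receptor transcript in every library, also with the longest coding transcript as length, where the ratio was 0.351 ± 0.025 with vehicle and 0.644 ± 0.038 with corticosterone (SD, n = 3 each).

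*Pdgfrl* (ENSMUSG00000031595; chromosome 8, 40926212 to 40990785, plus strand) encodes a secreted protein that resembles the extracellular part of a PDGF receptor and has no kinase domain. It was the least abundant of the 7, with 35.7, 57.1 and 53.8 with vehicle and 33.2, 29.8 and 38.4 with corticosterone. The groups overlapped, because the lowest vehicle library lay between the treated ones. It had 27 to 74 reads in each library. The log2 fold change of -0.51 (SE 0.25, adjusted p = 0.21 by limma, 95% interval -1.04 to 0.02) leaves no change within the interval.

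**Figure D1:**
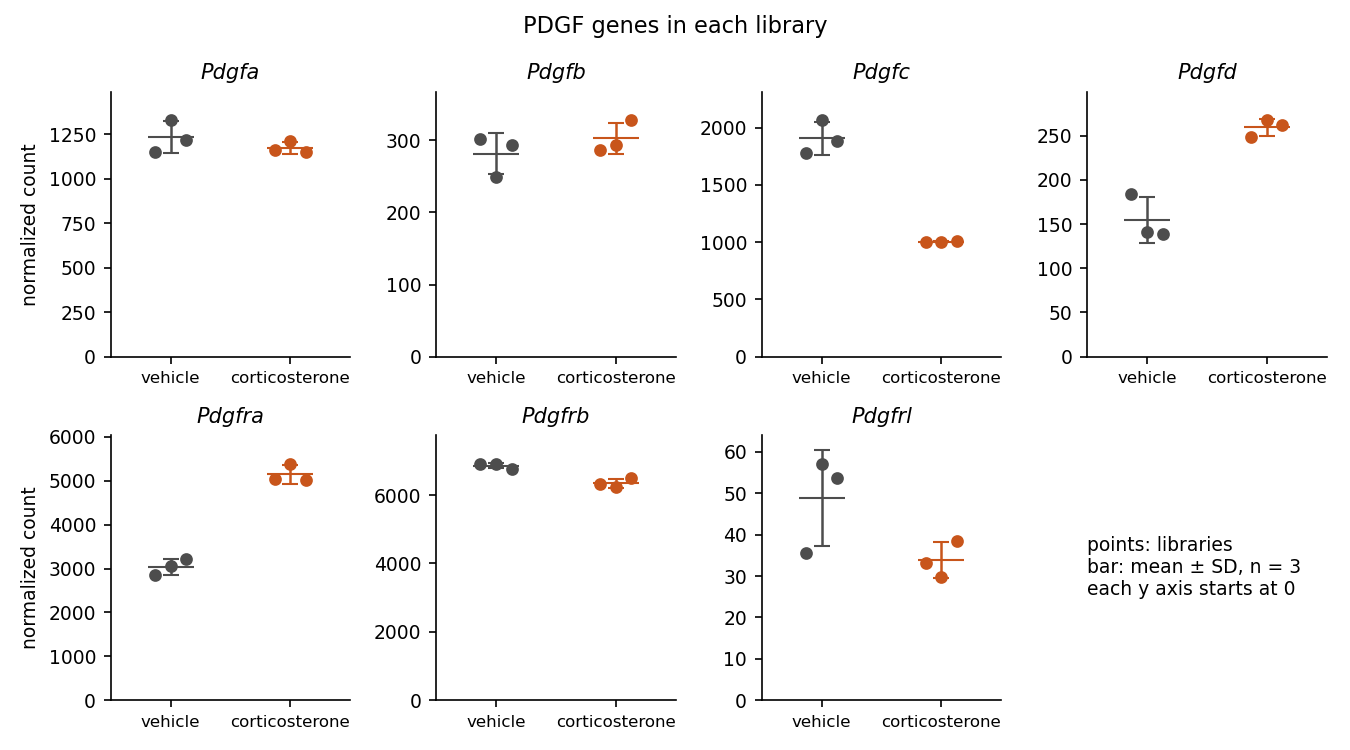
Normalized count (y axis, from 0 in each panel) of the 7 PDGF genes in the 3 vehicle (grey) and 3 corticosterone (orange) libraries, with the mean and SD of each group. *Pdgfra* and *Pdgfd* sit higher and *Pdgfc* lower in every corticosterone library, *Pdgfrb* differs by a narrow margin, and the other 3 genes overlap between the groups.

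*Pdgfc* (ENSMUSG00000028019; chromosome 3, 81036416 to 81214040, plus strand) encodes a ligand that activates the α receptor once its CUB domain is cut off. Its normalized count was 1777.5, 2064 and 1885 with vehicle and 1002, 1001 and 1013 with corticosterone. All treated libraries were below all untreated ones, and they spread less, with a coefficient of variation of 0.682% against 7.58%. The mean went from 1909 ± 145 to 1005 ± 6.86 (SD, n = 3 each). The log2 fold change of -0.92 (SE 0.06, adjusted p = 5.2e-09 by limma) was the largest in size among the genes of the family that passed the test. Its 95% interval of -1.04 to -0.80 reaches past the study's fold threshold, whereas the estimate itself does not. It ranked 158 of all genes by p.

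*Pdgfd* (ENSMUSG00000032006; chromosome 9, 6168584 to 6378850, plus strand) encodes the other CUB-domain ligand, which acts mainly through the β receptor. It had 184, 141 and 139 with vehicle and 248, 267 and 262 with corticosterone. The groups did not overlap, although the first vehicle library stood above the other two. The means were 155 ± 25.5 and 259 ± 9.78 (SD, n = 3 each). The log2 fold change was 0.76 (SE 0.12, adjusted p = 1.6e-04 by limma). The 95% interval of the fold was 1.42 to 2.01. Without that first vehicle library the log2 fold change was 0.89, the highest of the 6 fits that left out 1 library, and the lowest was 0.68.

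*Pdgfa* (ENSMUSG00000025856; chromosome 5, 138976014 to 138997370, minus strand), the classic ligand of the α receptor, had 1151, 1329 and 1219.5 with vehicle and 1162, 1214 and 1149 with corticosterone. The groups overlapped, and the log2 fold change was -0.07 (SE 0.06, adjusted p = 0.54 by limma) with a 95% interval of the fold from 0.875 to 1.04. *Pdgfb* (ENSMUSG00000000489; chromosome 15, 79995874 to 80014977, minus strand), which binds both receptors, had 302, 248.5 and 294 with vehicle and 287, 294 and 327.5 with corticosterone. These groups overlapped too, and the log2 fold change was 0.11 (SE 0.10, adjusted p = 0.55 by limma) with a 95% interval of the fold from 0.937 to 1.24. A change of the size seen in *Pdgfra*, *Pdgfc* or *Pdgfd* lies outside both intervals.

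In 4 of the 7 genes (*Pdgfc*, *Pdgfd*, *Pdgfra* and *Pdgfrb*) the groups did not overlap, where 29.6% of all genes had such groups. That share was not taken among genes with a mean of at least 50, to which 6 of the 7 belong, so no conclusion is drawn from it. The median log2 fold change of the 7 was -0.07, against -0.01 over all genes, since the changes went in both directions. The pair of CUB-domain ligands moved in opposite directions, and so did *Pdgfra* and its ligand gene *Pdgfc*.

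**Figure D2:**
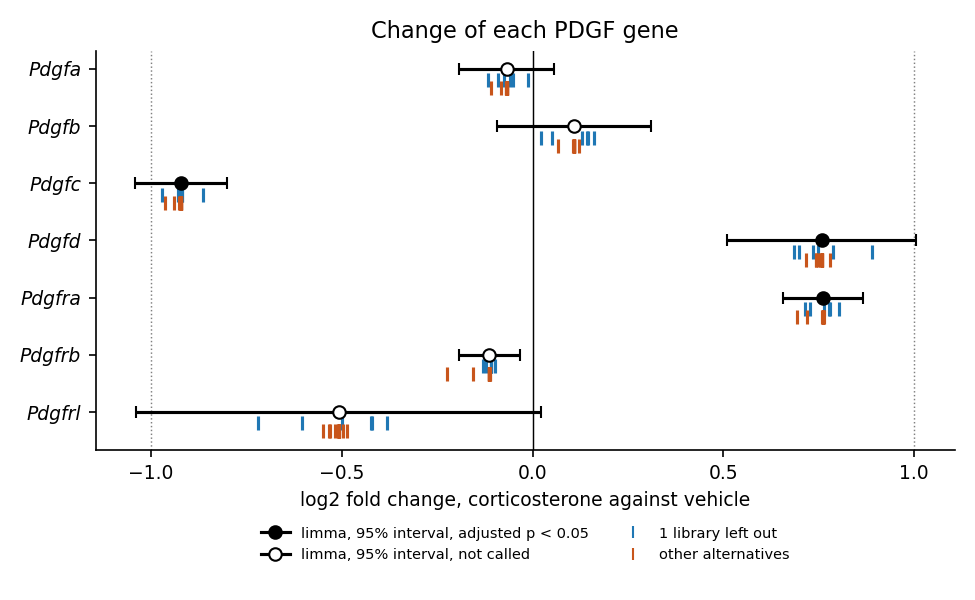
Log2 fold change (x axis, corticosterone against vehicle) of the 7 PDGF genes by limma, with 95% intervals (filled points have an adjusted p under 0.05; dotted lines mark a log2 fold change of 1 in either direction). Ticks below each point give the 6 fits without 1 library (blue) and the 12 other alternatives (orange). For all 7 genes the ticks stay on the same side of 0 as the main value.

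Levels of different genes were compared only as normalized count per kilobase of exon, taken over the union of annotated exons. With vehicle the order was *Pdgfrb* at 1253 ± 14.2, *Pdgfa* at 395 ± 28.9, *Pdgfc* at 375 ± 28.4, *Pdgfra* at 303 ± 18.5, *Pdgfb* at 67.6 ± 6.89, *Pdgfd* at 49.0 ± 8.09 and *Pdgfrl* at 15.6 ± 3.69 (SD, n = 3 each). The ranges of *Pdgfa* and *Pdgfc* overlapped, and no other neighbours in this order did. With corticosterone *Pdgfra*, at 513 ± 20.8, stood directly after *Pdgfrb* at 1159 ± 25.3, and *Pdgfa* followed with 377 ± 11.0. *Pdgfc*, at 198 ± 1.35, had dropped below *Pdgfa*, with no overlap of their ranges. *Pdgfd* at 82.2 ± 3.10 was above *Pdgfb* at 72.8 ± 5.22 with this length. With the longest coding transcript as length *Pdgfb* was the higher of both, at 103 against 82.8, so the order of these 2 genes is not settled, and no other place in the order changed.

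**Figure D3:**
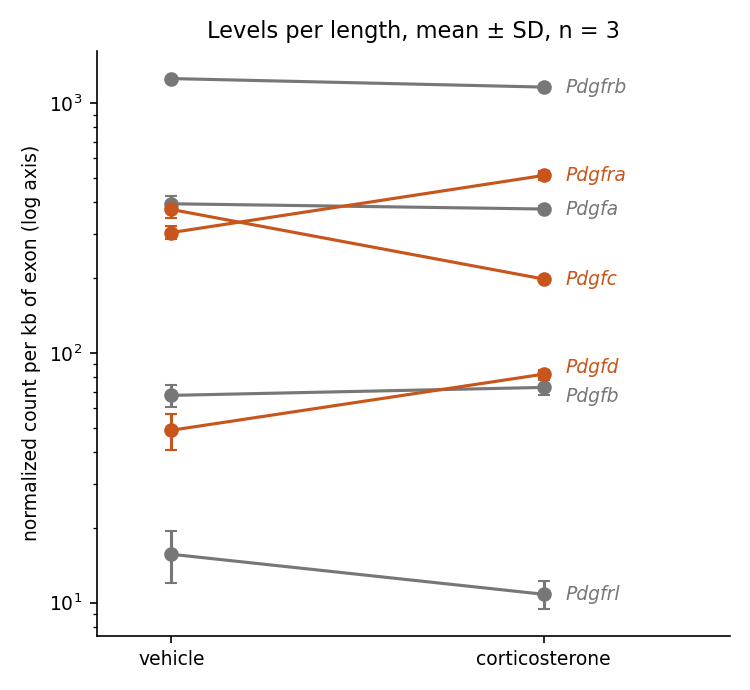
Normalized count per kilobase of exon (y axis, log scale; mean and SD of 3 libraries) of the 7 PDGF genes with vehicle and with corticosterone; genes with an adjusted p under 0.05 are orange. *Pdgfra* goes from the fourth place at 303 to the second at 513, and *Pdgfc* from 375 to 198.

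The makeup of the ligand transcripts shifted accordingly. Of the sum of the 4 ligands per kilobase, *Pdgfc* made up 41.1%, 43.3% and 42.3% with vehicle against 27.5%, 26.5% and 27.3% with corticosterone. Its share thus went from 42.2% ± 1.09 to 27.1% ± 0.498 (SD, n = 3 each). *Pdgfd* made up 5.56% ± 1.15 with vehicle and 11.3% ± 0.252 with corticosterone. The share of *Pdgfa* went from 44.5% ± 1.04 to 51.7% ± 1.03 although its own level did not pass the test, because shares of 1 sum move together, and that of *Pdgfb* from 7.66% ± 1.13 to 9.98% ± 0.706 (SD, n = 3 each). In each of the 4 shares the groups did not overlap (exact permutation test, two-sided p = 0.1, also after adjustment over the 4, the smallest possible).

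**Figure D4:**
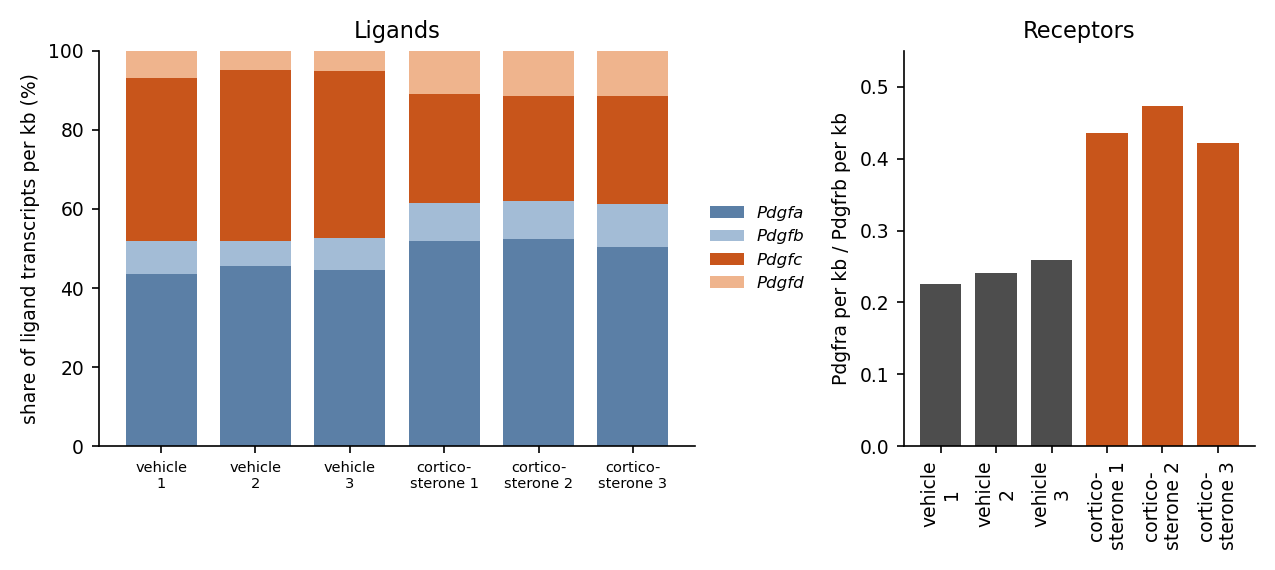
Left, share (y axis, %) of each of the 4 ligand genes in the sum of their normalized counts per kilobase, as a stacked bar for each library; right, ratio of *Pdgfra* to *Pdgfrb* per kilobase in each library. *Pdgfc* takes about 42.2% of the ligand sum with vehicle and 27.1% with corticosterone, and the receptor ratio is 0.225 to 0.26 against 0.422 to 0.473.

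Genes around the PDGF system were described by lists of textbook members, 80 of whose 85 genes had values. Of these 80, 18 were higher and 15 lower at an adjusted p under 0.05 and 47 did not pass, with a median log2 fold change of -0.04. Beside the background of 16.7% over all genes and 31.5% over the more abundant ones, 41.2% of the list genes were called. The lists were chosen with earlier results of these data known, so no conclusion is drawn from that difference.

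Of 9 genes that process or bind the ligands, 2 were higher, 3 lower and 4 not called. *Plat*, tissue plasminogen activator, the protease known to activate PDGF-C, had 1229, 1497 and 1253 with vehicle and 626, 663 and 622 with corticosterone. It fell in all treated libraries, with a log2 fold change of -1.05 (SE 0.07, adjusted p = 1.5e-08 by limma). The other called genes of this list are named after their values were seen. *Plau*, urokinase, a protease known to activate PDGF-D, had 212, 203 and 214 with vehicle and 115, 124 and 150 with corticosterone, so that it fell (log2 fold change -0.71) while *Pdgfd* rose. *Lrp1*, an endocytic receptor that associates with the β receptor, rose from 29744, 30975 and 31554 to 49904, 51731 and 50097, a log2 fold change of 0.72. *Furin*, a convertase that cuts PDGF-A and PDGF-B precursors, rose by 0.20, and *Sparc*, a matrix protein that binds PDGF-B, fell by 0.33 on the log2 scale. Genes for the protease *St14* and the convertase *Pcsk5* were at or near 0, and the co-receptor *Nrp1* did not pass the test.

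Of 34 receptor-proximal effectors, 9 were higher, 5 lower and 20 not called. The largest changes were rises. *Stat5a*, a transcription factor activated by tyrosine kinases, had 647, 639 and 703 with vehicle and 1156, 1246 and 1163 with corticosterone (log2 fold change 0.84, SE 0.06, adjusted p = 2.8e-08 by limma). *Prkca*, protein kinase C α, changed by 0.67 and *Stat5b* by 0.53. The treated libraries were above the untreated ones in all 3 of these genes. Of 11 negative regulators, 1 was higher, 1 lower and 9 not called. *Ptpn1*, a phosphatase that dephosphorylates PDGF receptors, rose by 0.21, and the adaptor *Sh2b3* fell by 0.17 on the log2 scale (limma adjusted p = 0.0068 and 0.036). The share of called negative regulators, 18.2%, was near the 16.7% of all genes. It was below the 31.5% of genes with a mean of at least 50, to which all of this list but *Sla* belong.

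Of 15 genes known to be induced early by PDGF, 3 were higher, 6 lower and 6 not called, with a median log2 fold change of -0.40. *Egr2*, a zinc-finger transcription factor, had 632, 736 and 535 with vehicle and 126, 168 and 157 with corticosterone, a log2 fold change of -2.07 (SE 0.12, adjusted p = 2.6e-09 by limma). *Ccl2*, a monocyte chemokine, had 35.7, 64.1 and 60.0 with vehicle and 15.0, 12.1 and 8.96 with corticosterone, a log2 fold change of -2.12. *Has2*, a hyaluronan synthase, had 46.2, 49.4 and 62.1 with vehicle and 8.57, 12.1 and 1.28 with corticosterone, a log2 fold change of -3.31 whose size is uncertain. Its lowest value is 1 read, which weighs more on the log scale than in the ratio of the group means, 0.139. These genes respond to many stimuli besides PDGF, and their early response was not sampled at 24 h.

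**Figure D5:**
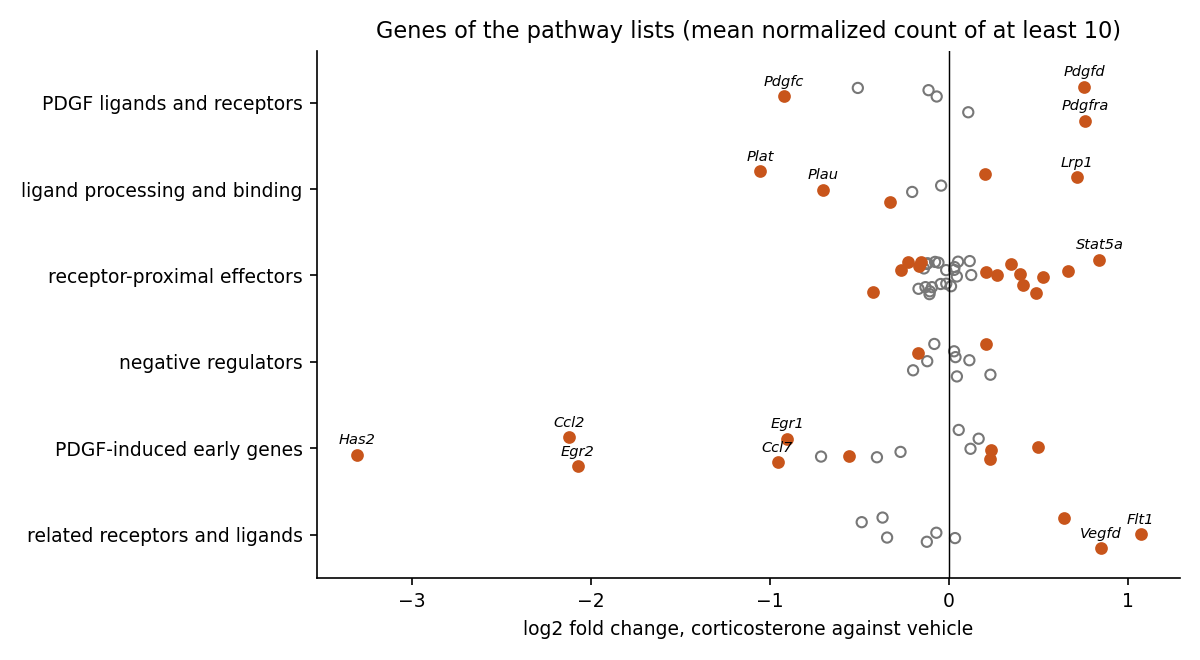
Log2 fold change (x axis, corticosterone against vehicle) of the PDGF genes and of the genes of the 5 pathway lists with a mean normalized count of at least 10; filled orange points have an adjusted p under 0.05, the vertical scatter has no meaning, and called genes past 0.7 in size are labelled. The early genes reach from -3.31 (*Has2*) to 0.50 (*Myc*), and the effectors stay within 0.84 (*Stat5a*).

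Of 11 related receptors and ligands (the class III receptors, the VEGF family and their ligands), 3 were higher and 8 not called. *Flt1*, a VEGF receptor, had 1664, 1424 and 1749 with vehicle and 3339, 3313 and 3476 with corticosterone, a log2 fold change of 1.07 (SE 0.06, adjusted p = 2.9e-09 by limma). *Vegfd* and *Vegfa*, ligands named after their values were seen, rose by 0.85 and 0.65 on the log2 scale.

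*Kit* and *Csf1r* are paralogs of the PDGF receptors and lie next to them, *Kit* 376701 bases after *Pdgfra* on chromosome 5 and *Csf1r* 15537 bases after *Pdgfrb* on chromosome 18. *Kit* was at most 6.63 in any library and *Csf1r* was 16.6 to 30.8 with vehicle and 15.0 to 15.5 with corticosterone (limma adjusted p = 0.40 and 0.46). Of the 12 nearest protein-coding neighbours with values, 2 were higher, 2 lower and 8, *Kit* and *Csf1r* among them, not called. The 4 that were called are named after their values were seen. *Mtus1*, which lies 129 bases after *Pdgfrl* on the opposite strand, fell from 155 ± 12.6 to 74.6 ± 18.0 (log2 fold change -1.08, limma adjusted p = 2.2e-04, SD, n = 3 each). *Glrb*, 122756 bases before *Pdgfc*, fell by 0.69 on the log2 scale. *Prkar1b*, 19936 bases upstream of the minus-strand gene *Pdgfa*, rose by 2.28. *Rpl3*, 62814 bases upstream of *Pdgfb*, which is also on the minus strand, rose by 0.19.

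Reads could be shared with other genes in 4 of the 7, judged by the share of a gene's 31-base stretches found in another gene's transcripts too. That share was 23.3% for *Pdgfa*, of which nearly all (727 of 729 stretches) lie in the antisense transcript *6330403L08Rik*, 5.57% for *Pdgfra*, 2.54% for *Pdgfc* and 2.01% for *Pdgfrl*. It was 0 for *Pdgfb*, *Pdgfd* and *Pdgfrb*. *6330403L08Rik* had 243 ± 17.3 with vehicle and 208 ± 18.7 with corticosterone (SD, n = 3 each). Whether counting used the strand is not given in the sources used here, so the value of *Pdgfa* is uncertain by the reads of that transcript.

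For each of the 6 genes with a mean of at least 50, the nearest profiles were sought among 11479 other genes by the root mean square difference of log2 values over the 6 libraries, each gene centred on its own mean. *Pdgfra* was nearest to *Scara5* (0.032) and *Lrp1* (0.038), where the median gene was at 0.399. *Pdgfc* was nearest to *Irx3* (0.027) and *Npnt* (0.033), and *Pdgfd* to *Nrn1* (0.038) and *Arxes2* (0.065). *Pdgfrb* was nearest to *Snx30* and *Rnase4*, *Pdgfa* to *Bap1* and *Mkrn2*, and *Pdgfb* to *Vps53* and *Gm9923*, all within 0.034, with median genes at 0.125, 0.137 and 0.163. Likeness over 6 libraries in 2 groups says nothing of shared control.

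The labelled cell type was checked with markers. All 8 osteoblast markers were detected in every library, with *Bglap* the lowest at no fewer than 48 reads, and 1 rose and 7 fell. The one that rose was *Spp1*, by 0.23 on the log2 scale. Of those that fell, 4 passed a log2 fold change of -1, namely *Bglap* (-1.87), *Sp7* (-1.34), *Runx2* (-1.16) and *Ibsp*. The smallest fall was that of *Col1a1*, at -0.15. These osteoblast markers are named after their values were seen. Of 8 markers of pericytes and smooth muscle, which also carry *Pdgfrb*, 2 rose and 1 fell, and their summed normalized count was 21907 to 24786 with vehicle and 26274 to 29872 with corticosterone, most of it *Acta2*, which other mesenchymal cells also express. Within this list *Acta2* rose by 0.31 and *Tagln*, named after its values were seen, by 0.64 on the log2 scale (limma adjusted p = 5.3e-04 and 0.015). *Cspg4* fell from a mean of 1319 to 842 (log2 fold change -0.65, adjusted p = 1.1e-06 by limma). *Notch3* had means of 1042 and 1066, whereas *Des*, *Rgs5* and *Myh11* had means of at most 20.5. The sum of 4 endothelial markers with values, of which limma called none at an adjusted or unadjusted p under 0.05, was 22.8 to 47.8 with vehicle and 39.8 to 53.7 with corticosterone, and *Pecam1*, *Tek* and *Emcn* were each at a mean under 3. Of 4 macrophage and osteoclast markers *Ctsk*, named like *Cspg4* and *Notch3* after its values were seen, fell from 1852 to 1438 (log2 fold change -0.36, adjusted p = 5.3e-05 by limma) and made up most of their sum. That sum was 1848 to 2008 with vehicle and 1456 to 1521 with corticosterone, and *Acp5* was at a mean of at most 1.03. *Cd68* had means of 31.6 and 30.4 and *Csf1r* of 22.2 and 15.3, and limma called neither. *Ptprc* and *Adgre1* had no values. Which cells the *Ctsk* mRNA came from was not tested. Of 2 adipocyte markers with values, *Fabp4*, named after its values were seen, rose from 21.1, 7.72 and 15.5 to 124, 108 and 130.5, while *Plin1* had reads in 1 library only. The part of these markers in the changes of the PDGF genes was not tested.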

How the data were processed

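RNA-seq libraries of differentiated MC3T3-E1 osteoblasts were compared, 3 with vehicle and 3 with corticosterone, grouped by the treatment label. The deposited table holds a signal (never below 0) for each gene in each library, which the authors named FPKM. Every value was a whole multiple (within 0.01 reads) of 1 step per library, independent of gene length, so the authors' values are whole read counts divided by 1 size factor per library, here called normalized counts. Whole reads were recovered for 100% of values in each library and used for edgeR and DESeq2. The submitters' processing notes name the build mm10. The aligner, counting program and annotation are not given in the sources used here. Genes whose identifier has no row in the table were not analysed here.

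The test, designed for FPKM and kept, was limma 3.58.1 (lmFit, eBayes with a variance trend; R 4.3.3) fitted to log2(value + 0.1). A minimum mean of 0.1 removed no gene, the lowest being 0.257, and p-values were adjusted over all 24016 genes. On this scale fold changes of low genes can be understated by the pseudocount or, where a library is near 0, overstated against the ratio of the means. Single values were compared with exact permutation tests (scipy 1.17.1). Alternatives changed the pseudocount, filter, scaling, variance model and tool (edgeR 4.0.16 on TMM-scaled counts, DESeq2 1.42.0), added the replicate number as a block, or left out 1 library. Scripts were tested on simulated counts. No pair of libraries agreed within sampling noise. The floor of 3 reads covers counting error only.

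Symbols, coordinates and lengths came from GENCODE M21 (GRCm38), which matched 23983 of 24016 identifiers, and promoters from RefSeq. The PDGF genes and the lists of related genes were chosen with earlier results of these data known. In each pathway list the genes named are those past both thresholds with a mean of at least 10, or else the 3 with the largest called change, with exceptions said in the text. A gene "called", or said to have risen or fallen, has an adjusted p under 0.05. List genes without values were A2m, Cxcl1, Flt3, Kdr, Flt4, Cdh5, Ptprc, Adgre1, Adipoq, Pparg and Lep.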

Additional observations from a re-analysis of the deposited data

How the results depend on the processing

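*Pdgfc*, *Pdgfd* and *Pdgfra* kept their direction and were called in all 18 alternatives, with log2 fold changes of -0.97 to -0.86, 0.68 to 0.89 and 0.69 to 0.80. The alternative without a filter is among the 18 and only repeats the main fit, because the filter removed no gene. The strength of the calls varied. Without the variance trend the limma adjusted p was 0.0070 for *Pdgfc*, 0.045 for *Pdgfd*, just under the threshold, and 0.010 for *Pdgfra*. *Pdgfa*, *Pdgfb* and *Pdgfrl* kept their direction and were called in none of the 18. *Pdgfrb* was called as lower under 7 alternatives, so that 2 of the 7 PDGF genes were then lower, with -0.11 by DESeq2, by edgeR with and without the replicate block, with a mean of at least 10 and with upper-quartile scaling, -0.16 with equal-total scaling and -0.22 with quantile normalization. Its adjusted p over these 7 ranged from 0.00029 to 0.043, and the cause was not tested. Over all genes, 2040 were higher and 1970 lower. Without the variance trend these counts were 873 and 760, and those of the pathway lists were 10 and 8 in place of 18 and 15. Leaving out 1 library gave 1419 to 1873 higher and 1148 to 1611 lower genes, 253 to 331 and 204 to 321 past a log2 fold change of 1, and 13 to 18 higher and 10 to 13 lower list genes. The lowest counts of lower genes, 1148 and 204 against 1970 and 337, came without vehicle replicate 3, and without vehicle replicate 2 there were 220 past the fold threshold. The ligand shares moved with gene length. The *Pdgfa* share rose by 8.40 percentage points with no length correction and 8.22 with the longest coding transcript, against 7.12, that of *Pdgfc* changed by -16.6 with no length correction against -15.1, and that of *Pdgfd* rose by 4.09 with the longest transcript against 5.71. The last alternative was chosen after seeing the data. Replicate numbers are shared between the groups. Deviations of same-numbered libraries correlated at -0.044, 0.0014 and 0.023 over 13880 genes, so no shared deviation was seen. These correlations cannot tell whether same-numbered libraries were prepared as pairs. With the replicate block limma called 3905 genes in place of 4010 and edgeR 4606 in place of 4327, and the limma calls of the PDGF genes stayed as they were (*Pdgfrb* adjusted p = 0.064). DESeq2 called 3634 genes. Scaling moved the median log2 fold change of all genes to -0.05 at most. Depth limits *Pdgfrl* most, at 27 to 74 reads.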
